A study of Mus musculus with 4 samples.

Results

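The miR-101 paralogs of the mouse are miR-101a and miR-101b, each cut from its own hairpin into a 5p and a 3p strand, also called its arms. The members described here are the 4 rows of the count files that bear these names, mmu-miR-101a-3p, mmu-miR-101a-5p, mmu-miR-101b-3p and mmu-miR-101b-5p (miR-101a-3p and so on below), of 1907 mature miRNAs counted in all. They were measured by small RNA sequencing of liver from 15-week-old C57BL/6 mice. A control group of 2 libraries was set against 2 libraries from mice injected intraperitoneally with thioacetamide (TAA) at 200 mg/kg, 3 times a week for 10 weeks. TAA is a hepatotoxin that the liver itself activates and that is used to bring on fibrosis in rodents. The labels give no transgene, deletion or other agent in either group, and do not say what the controls were injected with. The design text calls the libraries biological replicates without naming the animals, so p-values measure only the spread between these libraries. The question put by the series is which miRNAs change in liver made fibrotic by TAA.

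A miRNA is loaded as a single strand into an Argonaute protein and guides it to messenger RNAs, mainly through its seed, bases 2 to 8 counted from the 5′ end, which pairs with sites in the 3′ untranslated region (UTR). The other strand of the hairpin, the passenger, is mostly degraded. miR-101 is abundant in liver and is best known as a repressor of Ezh2, the methyltransferase of Polycomb repressive complex 2 that places the silencing mark on lysine 27 of histone H3. In liver it has also been reported to target Tgfbr1, the type I receptor of the fibrogenic cytokine TGF-beta, and Klf6, a zinc finger transcription factor, and low miR-101 has been reported in hepatocellular carcinoma.

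The mature sequences are shown first because the counts of the 3p strands rest on a difference of 1 base. RefSeq (GRCm38.p6) held a mature sequence for 4 of the 4 members. In each, the seed is in capitals.
miR-101a-3p: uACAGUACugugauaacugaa
miR-101b-3p: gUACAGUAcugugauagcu
miR-101a-5p: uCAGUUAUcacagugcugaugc
miR-101b-5p: uCGGUUAUcaugguaccgaugcu
The 3p strand of miR-101b is annotated to start 1 base earlier than that of miR-101a, so that its seed also begins 1 base earlier on the sequence they have in common. Each of the 4 seeds occurs in 1 mature miRNA only among the 1679 in the table. Aligned over the 18 bases they share, the 3p strands differ by the single substitution A16G, counted from the 5′ end of miR-101a-3p. The 5p strands differ at 5 of 22 aligned bases, A3G, C11U, A12G, G15A and U17C, counted from the 5′ end of miR-101a-5p, of which the first lies in the seed.

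The hairpins come from different chromosomes, and are printed with the mature strands in capitals, 5p before 3p, to show what each locus gives.
Mir101a: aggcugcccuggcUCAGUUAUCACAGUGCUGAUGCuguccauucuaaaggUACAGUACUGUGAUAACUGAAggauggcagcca
Mir101b: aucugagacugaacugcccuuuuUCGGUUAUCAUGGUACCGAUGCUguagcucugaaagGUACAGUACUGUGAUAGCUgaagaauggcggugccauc
Mir101a lies on the minus strand of chromosome 4, at 101346945 to 101347027 (GRCm38), in exon 2 of 2 of the long non-coding RNA E130102H24Rik. Mir101b lies on the plus strand of chromosome 19, at 29135279 to 29135375, in intron 8 of Rcl1, a protein-coding gene whose product takes part in ribosomal RNA processing. The hairpins share an unbroken run of 20 bases that ends at base 15 of miR-101a-3p. Over miR-101a-3p and the base before it, 21 of 22 bases are the same in both loci, so a read of the mature strand can be told apart only if it covers base 16.

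Another annotated row, miR-101c, is no member, but its sequence is wholly contained in miR-101a-3p, at bases 2 to 20.
miR-101c: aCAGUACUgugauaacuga
It is annotated on the minus strand of chromosome 9, at 3038680 to 3038698, in no GENCODE gene other than its own. Of the Mir101a hairpin, 19 bases recur in Mir101c, which does not hold the whole of miR-101a-3p. The sources used here do not say how reads that match several places were assigned, and the row of the count files for such reads holds 0 in all 4 libraries. The division of reads between miR-101a-3p, miR-101b-3p and miR-101c is therefore uncertain. Reads moved between miR-101a-3p and miR-101b-3p would leave the sum of the 3p strands unchanged. Any reads with several matches that were dropped would be missing from that sum too.

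The libraries held 42609845 to 48878003 miRNA counts, and 993 to 1052 miRNAs were detected in each. The labelled tissue was checked only for the presence of miR-122-5p, the defining miRNA of hepatocytes. It measured 18285, 21607, 17376 and 17500 CPM (counts for a library total set to 1000000) in control 1, control 2, TAA 1 and TAA 2. In every library it lay below miR-192-5p (225049 to 264434 CPM), another liver-enriched miRNA. It also lay below miR-143-3p (21931 to 29773 CPM) and miR-126a-5p (19178 to 25344 CPM), listed below as mesenchymal and endothelial markers. Levels are CPM scaled with TMM factors, which correct library size for composition, and a read covers 1 mature strand whatever its length, so counts were not divided by length. The TMM factors were 0.994 and 0.925 in control 1 and 2 and 1.04 and 1.05 in TAA 1 and 2, which raises the control values relative to TAA-treated liver.

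Both 3p strands were among the abundant miRNAs of these livers, and both measured lower after TAA, at 0.797 and 0.814 of the control level, without passing the test. miR-101b-3p, the paralog with more reads, was counted 381496 and 469439 times in control 1 and 2, and 367641 and 402123 times in TAA 1 and 2. That is 9012 and 10981 CPM in control 1 and 2 against 8089 and 7839 CPM in TAA 1 and 2. Both TAA libraries lay below both controls, and control 2 stood above the other 3 libraries. The means were 9997 ± 1393 CPM for control and 7964 ± 177 CPM for TAA (SD, n = 2 each). The log2 fold change was -0.33 (SE 0.12), or 0.797-fold with a 95% interval of 0.660 to 0.962 that is not adjusted for the number of miRNAs tested (edgeR quasi-likelihood test, adjusted p = 0.115).

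miR-101a-3p, which carries the canonical miR-101 seed, was counted 223059 and 265218 times in control 1 and 2, and 203466 and 249540 times in TAA 1 and 2. It measured 5269 and 6204 CPM in control 1 and 2 against 4477 and 4864 CPM in TAA 1 and 2. The groups again did not overlap, and control 2 was again the highest library. The means were 5737 ± 661 CPM and 4670 ± 274 CPM (SD, n = 2 each). The log2 fold change was -0.30 (SE 0.12), or 0.814-fold with a 95% interval of 0.676 to 0.981 (edgeR adjusted p = 0.154).

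The passenger strands were rare. miR-101a-5p was counted 844 and 934 times in control 1 and 2, and 801 and 953 times in TAA 1 and 2. This gave 19.9 and 21.8 CPM against 17.6 and 18.6 CPM, with both TAA libraries below both controls. Its log2 fold change was -0.21 (SE 0.17; edgeR adjusted p = 0.518), with a 95% interval of the fold from 0.659 to 1.14. miR-101b-5p, the rarest of the 4, was counted 93 and 125 times in control 1 and 2, and 111 and 107 times in TAA 1 and 2, or 2.20 and 2.92 CPM against 2.44 and 2.09 CPM. Its groups overlapped, and the log2 fold change of -0.18 (SE 0.25; edgeR adjusted p = 0.745) had a 95% interval of the fold from 0.591 to 1.32. A change of the size seen in the 3p strands lies within both of these intervals.

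**Figure D1:**
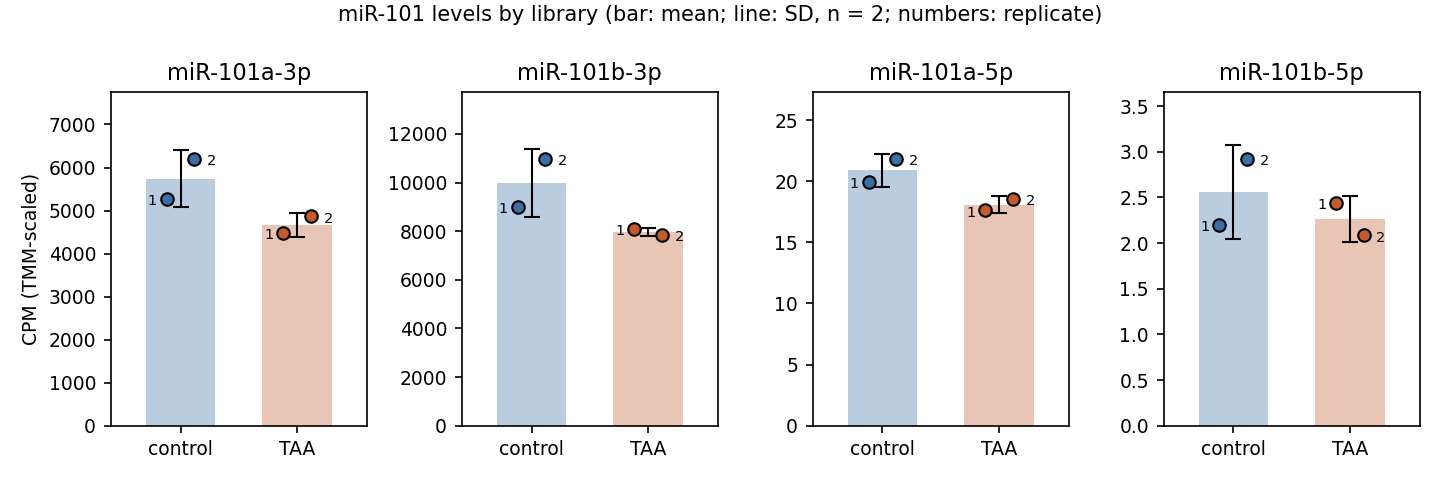
Levels of the 4 miR-101 strands in CPM scaled with TMM factors, each panel on its own linear axis from 0. Points are libraries numbered by replicate, bars are group means and lines are SD (n = 2). The TAA points lie below both control points for miR-101a-3p, miR-101b-3p and miR-101a-5p, and overlap them for miR-101b-5p; control 2 is the highest library in every panel.

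Of the 4 members, 0 passed the threshold of 0.05 on the adjusted p in edgeR, and also 0 in DESeq2 and in limma-voom. Of all 644 miRNAs tested, 16.6% passed, 14.0% as higher and 2.64% as lower in TAA-treated liver. An unadjusted p under 0.05 was reached by 2 of the 4 members, the 3p strands, and by 25.6% of all tested. Both TAA libraries lay below both controls in 3 of the 4 members and in 25.6% of all tested, and above them in 0 of the 4 and in 29.7%. The 2 strands of a hairpin share a precursor, and all 4 rows share the same libraries, so the members are not independent observations. The median log2 fold change of the members was -0.25, beside -0.0042 over all tested. In size the changes were not extreme for these libraries: 47.5% and 44.3% of all tested miRNAs had a larger absolute log2 fold change than miR-101a-3p and miR-101b-3p.

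The outcome for the 3p strands depended on which control was used. Without control 1, both passed as lower, miR-101b-3p with a log2 fold change of -0.48 (edgeR adjusted p = 0.00631) and miR-101a-3p with -0.43 (adjusted p = 0.0315). Without control 2, the changes were -0.19 and -0.18, and neither passed (adjusted p = 0.527 and 0.566). With library size alone in place of TMM factors, they shrank to -0.20 and -0.17 (adjusted p = 0.256 and 0.399). With upper-quartile factors they grew to -0.50 and -0.47 (adjusted p = 0.0510 and 0.0620). These 2 scalings also moved the median of all tested, to 0.12 and -0.17, so that relative to it miR-101b-3p stood at a similar distance in all 3.

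**Figure D2:**
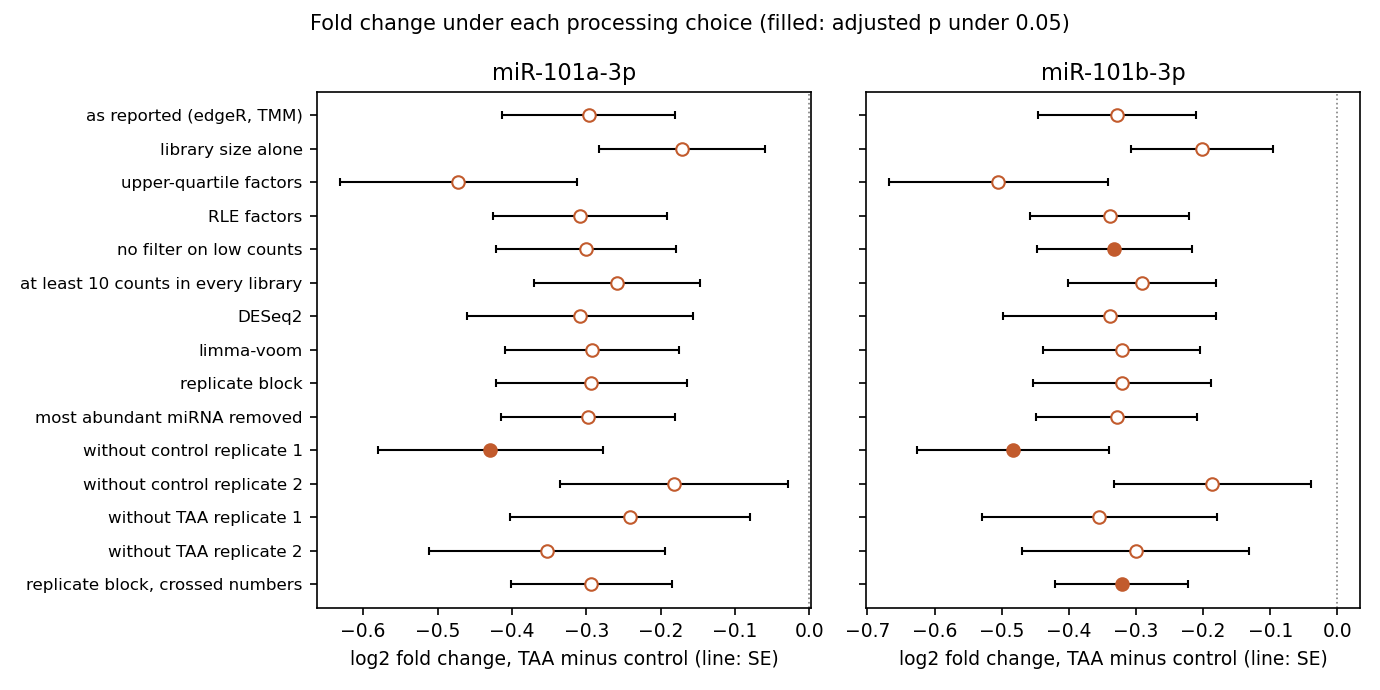
Log2 fold change, TAA minus control, of miR-101a-3p and miR-101b-3p under the reported fit and 14 other processing choices, with lines for the SE and filled points for an adjusted p under 0.05. All points lie below 0; miR-101a-3p passes under 1 choice and miR-101b-3p under 3, and the values move most with the scaling and with the control left out.

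The guide strands of both loci together took 1.42% and 1.59% of all miRNA counts in control 1 and 2, and 1.30% and 1.33% in TAA 1 and 2. Both TAA libraries lay below both controls also on this scale, which uses no scaling factor. The means were 1.50% ± 0.12 and 1.32% ± 0.022 (SD, n = 2 each). With 2 libraries against 2, an exact two-sided permutation test cannot give a p under 0.333, and it gave 0.333 here (0.667 adjusted over the 4 such tests made on miR-101 shares and ratios). These are bulk livers, in which fewer cells of a type and less RNA per cell cannot be told apart.

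In the order of mean levels over the 4 libraries, miR-101b-3p stood 19th and miR-101a-3p 28th of 644, miR-101a-5p 219th and miR-101b-5p 372nd. By counts, miR-101b-3p ranked 17 to 21 and miR-101a-3p 25 to 30 among the 1907 miRNAs of a library. miR-101b-3p, at 8980 ± 1426 CPM (SD over 4 libraries), stood between miR-30e-5p at 10070 ± 999 and miR-194-5p at 8615 ± 571 CPM. miR-101a-3p, at 5204 ± 741 CPM, stood between miR-29a-3p at 5252 ± 605 and miR-100-5p at 4916 ± 605 CPM. All 4 neighbours lay within 1 SD of their miR-101 strand, an SD that includes any difference between the groups. Library by library, miR-30e-5p exceeded miR-101b-3p in all 4, while each of the other 3 was above its miR-101 strand in some libraries and below it in others. miR-101b-3p exceeded miR-101a-3p in all 4.

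The paralogs stood in opposite order in their 2 strands. Of the 3p strands, miR-101b had 1.71 and 1.77 times the counts of miR-101a in control 1 and 2, and 1.81 and 1.61 times in TAA 1 and 2. Of the 5p strands, miR-101a had 9.08 and 7.47 times the counts of miR-101b in the controls, and 7.22 and 8.91 times in TAA-treated liver. On the log2 scale the a to b ratio was -0.78 ± 0.072 in the 3p and 3.02 ± 0.17 in the 5p strands (SD over 4 libraries, 0.5 added to each count). The gap between the strands is thus many times the spread between libraries, and it does not depend on any scaling factor. The ratios are of reads, and a bias between sequences that all libraries share would not appear in that spread. The 3p ratio also rests on the uncertain division of reads described above, and the 5p ratio on 93 to 125 counts of miR-101b-5p.

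The balance of the paralogs overlapped between control and TAA-treated liver. miR-101a made up 36.9% and 36.1% of the 3p counts in control 1 and 2 and 35.6% and 38.3% in TAA 1 and 2, so that both controls lay between the TAA libraries. The log2 ratio of miR-101a-3p to miR-101b-3p differed by 0.028 between the groups (exact two-sided permutation p = 1 for 2 against 2). For the 5p strands it differed by -0.039 (exact permutation p = 0.667, 0.889 adjusted). With 2 libraries against 2 this test cannot give a p under 0.333, so it cannot decide whether TAA shifted the balance. The 95% Wilson interval of the share ran from 35.5% to 35.8% in TAA 1 and from 38.2% to 38.4% in TAA 2, so these replicates differed by more than counting error. Without TAA 2, the difference in the 3p strands turned to -0.055.

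**Figure D3:**
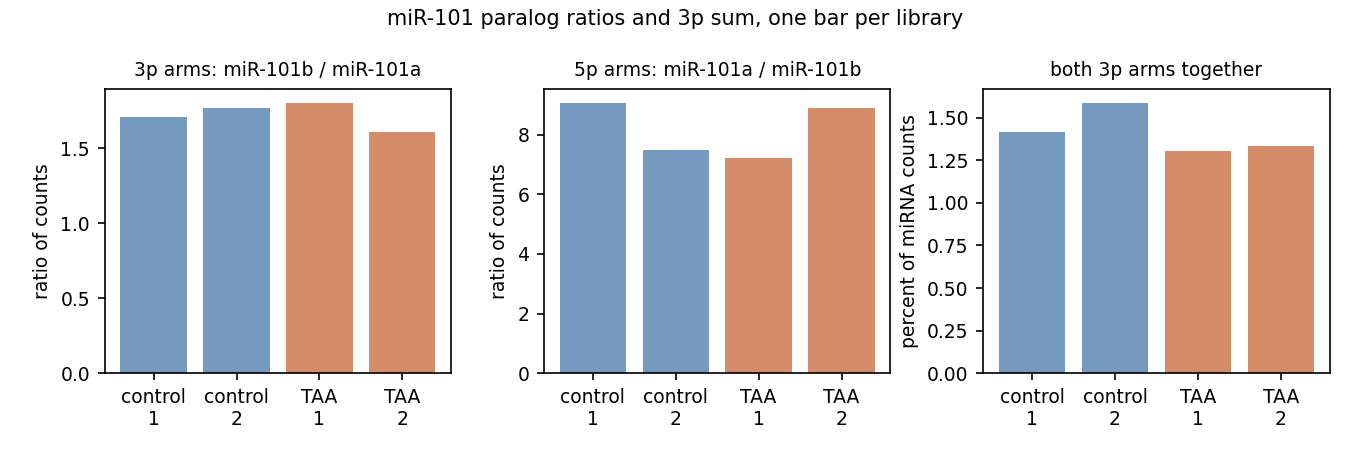
Ratio of miR-101b-3p to miR-101a-3p counts (left), of miR-101a-5p to miR-101b-5p counts (middle) and both 3p strands as a percent of miRNA counts (right), with 1 bar per library and linear axes from 0. The 3p ratio lies between 1.61 and 1.81 and the 5p ratio between 7.22 and 9.08 with the groups overlapping, while the summed share is lower in both TAA libraries.

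Almost all reads of both hairpins were of the 3p strand. Mir101b gave 4102 and 3756 reads of 3p for each read of 5p in control 1 and 2, and 3312 and 3758 in TAA 1 and 2. The same ratio for Mir101a was 264 and 284 in control 1 and 2 against 254 and 262 in TAA 1 and 2, lower in both TAA libraries, while the groups overlapped for Mir101b. The 5p strand thus made up 0.351% to 0.392% of the reads of miR-101a and 0.0244% to 0.0302% of those of miR-101b. Hairpins were compared where both strands averaged 20 counts or more, which 150 did. Of these, Mir101b had the most extreme excess of 3p over 5p and Mir101a the 11th, and 72 of the 150 had more 3p than 5p. Those with a rarer passenger strand were not ranked.

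The strand ratio did not change detectably with TAA. The log2 ratio of 5p to 3p was -8.05 and -8.15 in control 1 and 2 and -7.99 and -8.03 in TAA 1 and 2 for Mir101a, a difference of 0.087 (SE 0.18, 95% interval -0.36 to 0.53). For Mir101b it was -11.99 and -11.87 against -11.69 and -11.87, a difference of 0.15 (SE 0.19, 95% interval -0.31 to 0.62). Neither passed in limma (adjusted p = 0.985 for each over the 150 hairpins). No hairpin did, so that the share past the threshold was 0%, and 5 of 150 had an unadjusted p under 0.05.

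**Figure D4:**
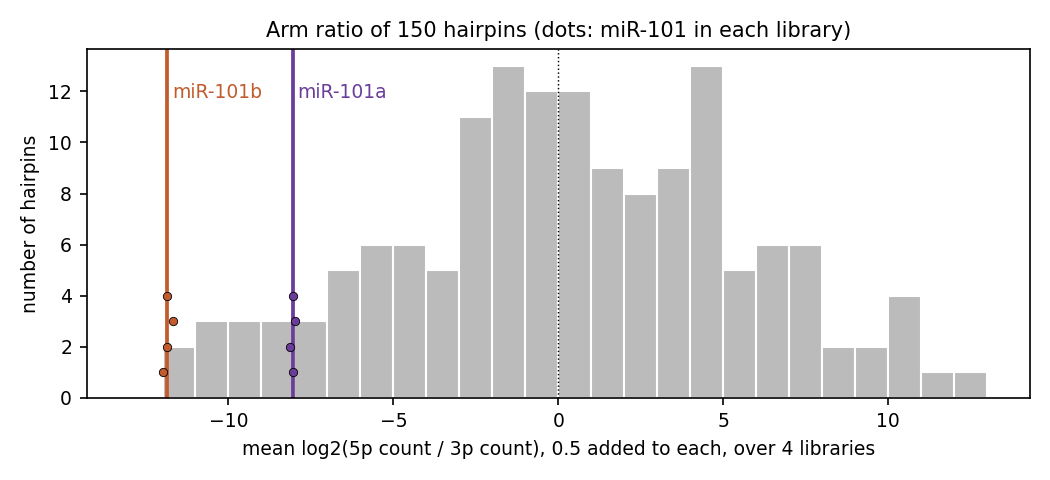
Distribution over 150 hairpins of the mean log2 ratio of 5p to 3p counts over the 4 libraries, with 0.5 added to each count. Vertical lines mark miR-101a at -8.05 and miR-101b at -11.85, the lowest of all, and dots, at arbitrary heights, give the ratio in each library.

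The row for miR-101c was small beside miR-101a-3p in every library. It held 512 and 588 counts in control 1 and 2, and 504 and 599 in TAA 1 and 2. That is 0.230% and 0.222% of the miR-101a-3p count in control 1 and 2 and 0.248% and 0.240% in TAA 1 and 2. The ratio was higher in both TAA libraries (exact permutation p = 0.333, the smallest possible, 0.667 adjusted). The log2 fold change of miR-101c was -0.18 (SE 0.18, edgeR adjusted p = 0.613). Adding these reads to miR-101a-3p would raise it by no more than the percentages given.

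A further relative by seed is miR-144-3p, an erythroid miRNA, which shares bases 1 to 7 with miR-101a-3p and differs at the last base of the seed, C8U.
miR-144-3p: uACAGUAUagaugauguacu
It measured 4.04 and 4.02 CPM in the controls and 7.39 and 32.3 CPM in TAA 1 and 2. Even its highest count, 1656 in TAA 2, stood against 249540 of miR-101a-3p in the same library. miR-144-3p passed the edgeR test (log2 fold change 2.30, SE 0.58, adjusted p = 0.0286), but not without TAA 2 (0.88, adjusted p = 0.0754), nor in DESeq2 (adjusted p = 0.0895) or limma-voom (0.0935), nor with at least 10 counts in every library (0.107).

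By the pattern over the 4 libraries, the 3p strands lay close to each other, with a root-mean-square distance of 0.063 between their centred log2 CPM. Among the other 135 miRNAs with a mean of at least 100 CPM, the median distance to miR-101a-3p was 0.20 and to miR-101b-3p 0.21. Nearest to miR-101a-3p were miR-148a-3p at 0.050, miR-1843a-5p at 0.054 and miR-30e-3p at 0.054. Nearest to miR-101b-3p were miR-15a-5p at 0.0063, miR-340-5p at 0.024 and miR-122-3p at 0.040. miR-15a-5p measured 639 and 779 CPM in control 1 and 2 and 575 and 562 CPM in TAA 1 and 2, the same order of libraries as miR-101b-3p. In all, 5 of the 135 were nearer to miR-101a-3p than its paralog was, and 3 to miR-101b-3p. All these profiles share 4 libraries and the same scaling factors, so the distances are a description only.

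**Figure D5:**
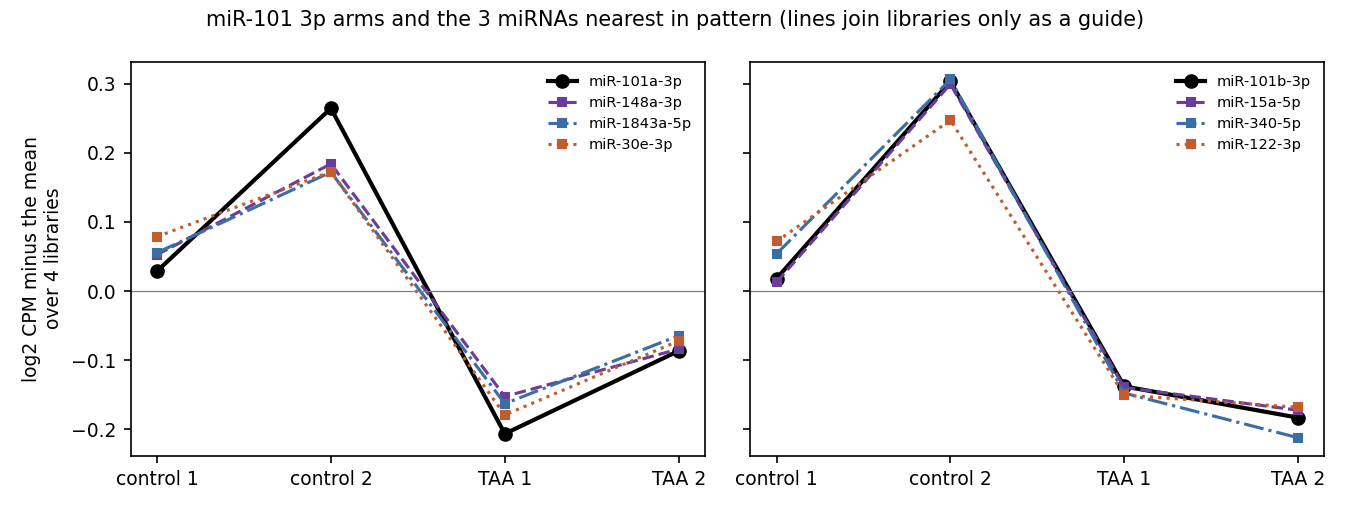
Log2 CPM (TMM-scaled) minus its mean over the 4 libraries for miR-101a-3p and miR-101b-3p (black) with the 3 miRNAs nearest to each in pattern; lines only join the points of a miRNA. All are highest in control 2 and lower in both TAA libraries than in either control, and miR-101b-3p and miR-15a-5p nearly coincide.

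Other liver-enriched miRNAs also measured lower. Of 8 listed without miR-101, 0 passed in either direction, against 14.0% higher and 2.64% lower of all tested. All 8 had a negative log2 fold change, as did 323 of the 644 tested, and the median of the 8 was -0.22. In TMM-scaled CPM, both TAA libraries lay below both controls in 7 of the 8, against 25.6% of all tested. The TMM factors raise the control values relative to TAA-treated liver, and this count was not made without them. miR-122-3p, the passenger strand of the hepatocyte miRNA miR-122, had a log2 fold change of -0.32 (SE 0.11, edgeR adjusted p = 0.107). The guide strand miR-122-5p had -0.19 (SE 0.11, edgeR adjusted p = 0.328). miR-30a-5p had -0.26 (SE 0.093; adjusted p = 0.114) and miR-148a-3p -0.24 (SE 0.094; adjusted p = 0.157). miR-192-5p, the most abundant of the list, had -0.16 (SE 0.088; adjusted p = 0.330). With library size alone the changes shrank, to -0.20 for miR-122-3p, -0.068 for miR-122-5p, -0.14 for miR-30a-5p, -0.11 for miR-148a-3p and -0.033 for miR-192-5p. As lower, 2 of the 8 passed without control 1 (miR-30a-5p and miR-148a-3p), 2 with upper-quartile factors (among them miR-122-3p, -0.50, edgeR adjusted p = 0.0407), 1 with no filter on low counts and 1 without control 2. The summed level of the 8 was 581866 and 636603 CPM in control 1 and 2 and 527440 and 542412 CPM in TAA 1 and 2, with control 2 again the highest.

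All 5 erythroid markers rose (miR-451a, miR-144-3p, miR-144-5p, miR-486a-5p and miR-486b-5p), with a median of 2.23 on the log2 scale. For the marker lists, rose and fell mean past the threshold. Of all tested, 14.0% passed as higher and 2.64% as lower. miR-144-3p and miR-144-5p are strands of the same hairpin and all 5 share the same libraries, so they are not independent observations. The summed level of the 5 erythroid markers was 445 and 274 CPM in control 1 and 2 and 731 and 2627 CPM in TAA 1 and 2. None of the 5 passed without TAA 2, in DESeq2 or with at least 10 counts in every library, and 2 did in limma-voom. Of 7 leukocyte markers, 3 rose. All 7 summed to 1216 and 1808 CPM against 2501 and 2070 CPM. Most of this sum was miR-142a-5p, at 706 and 1164 CPM against 1488 and 1290 CPM, which did not pass (edgeR adjusted p = 0.138). The 3 that rose were the lymphocyte miRNA miR-150-5p (log2 fold change 1.34, edgeR adjusted p = 0.000241), the activation-linked miR-155-5p (0.95, adjusted p = 0.0102) and miR-342-3p (0.69, adjusted p = 0.0228). None of the 7 had a negative log2 fold change. In 5 of them both TAA libraries lay above both controls, against 29.7% of all tested. In miR-223-3p and miR-146a-5p the groups overlapped. With TAA 1 or TAA 2 left out, 1 of the 7 passed, against 6 with library size alone or no filter on low counts and 7 without control 2.

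Of 5 mesenchymal markers 1 rose, miR-214-3p, beside 14.0% of all tested. All 5 summed to 27759 and 28077 CPM in control 1 and 2 and 31605 and 23348 CPM in TAA 1 and 2. Most of this sum was miR-143-3p, at 26276 and 26924 CPM against 29773 and 21931 CPM. The median log2 fold change of the 5 was 0.26. In 2 of the 5 both TAA libraries lay above both controls, against 29.7% of all tested. miR-199a-3p (0.51, edgeR adjusted p = 0.0842) and miR-199a-5p (0.26, adjusted p = 0.369) measured higher without passing. In 2 of the 5 the log2 fold change was negative, miR-143-3p (-0.041) and miR-145a-5p (-0.41). Of 5 biliary epithelial markers 2 fell, beside 2.64% of all tested, and all 5 summed to 387 and 428 CPM against 360 and 333 CPM. The 2 were miR-141-3p (log2 fold change -0.72, edgeR adjusted p = 0.0232) and miR-200c-3p (-0.85, adjusted p = 0.0335). Neither passed without TAA 1, without TAA 2 or with at least 10 counts in every library, and 1 did with either control left out. Of the 2 endothelial markers 0 passed, with sums of 25346 and 29185 CPM against 26409 and 22655 CPM. No marker on these lists was at 0 in any library. The part of other cell types in the miR-101 values was not tested.

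Of the other miRNAs reported to repress Ezh2, 2 rose and 0 fell among 13 tested of 14 listed (miR-26, miR-138, miR-214, miR-124 and the let-7 family with miR-98). This stands beside 14.0% and 2.64% of all tested. Their median log2 fold change was -0.0059. let-7e-5p measured 165 and 151 CPM in control 1 and 2 and 240 and 224 CPM in TAA 1 and 2, and rose by 0.56 on the log2 scale (SE 0.13; edgeR adjusted p = 0.0248). miR-214-3p, which is transcribed in stellate cells, measured 59.3 and 50.9 against 96.0 and 77.1 CPM and rose by 0.65 (SE 0.17; adjusted p = 0.0354). Neither passed with upper-quartile factors, without control 2, without TAA 1 or without TAA 2, and miR-214-3p also did not with at least 10 counts in every library. let-7i-5p did not pass, at a log2 fold change of 0.28 (edgeR adjusted p = 0.159). Nor did miR-26a-5p, the most abundant of the list, at -0.070 (adjusted p = 0.745). By summed level the 14 measured 89636 and 90525 CPM in control 1 and 2 and 88767 and 85522 CPM in TAA 1 and 2, which is above the sum of the miR-101 guide strands, 14281 and 17186 against 12565 and 12703 CPM.

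The messenger RNAs of reported targets were not measured in these libraries, and their sites are given to show what the 2 seeds read. The reverse complement of the miR-101a-3p seed is GTACTGT and that of the miR-101b-3p seed is TACTGTA, and they overlap in the 8 bases GTACTGTA, which answers both. The longest annotated 3′ UTR of each gene (GENCODE M21) was searched on the transcript's own strand. GTACTGT occurs in 9.39%, TACTGTA in 12.2% and GTACTGTA in 2.92% of 21020 such UTRs. Of 8 reported targets (Ezh2, Tgfbr1, Klf6, Mcl1, Fos, Ptgs2, Dnmt3a and Stmn1), 6 hold the first, 8 the second and 5 the overlap of both. They were listed because they are reported targets, so these counts are no test of enrichment. The shares also depend on UTR length. Among UTRs within 20% of the gene's own length, TACTGTA occurs in 2.67% for Ezh2 and in 46.3% for Dnmt3a. Windows of 30 bases, with the match in capitals, follow for the repressive enzyme and for the 2 genes linked to liver fibrosis.
Ezh2, bases 59 to 65: cttcaggaaccttgaGTACTGTgggcaatt
Ezh2, bases 114 to 121: ttctgaatttgcaaaGTACTGTAacagtaa
Tgfbr1, bases 3808 to 3815: taagttactcagatgGTACTGTAttgttta
Klf6, bases 1371 to 1378: ttttcacctggcattGTACTGTAtcaatgt
Positions are counted from 1 at the base after the stop codon. Ezh2 holds 2 matches to the miR-101a-3p seed in a UTR of 402 bases, and 2.73% of the 1798 UTRs within 20% of that length hold at least 1. Tgfbr1 also holds 2, in 4154 bases, where 24.0% of UTRs of like length hold at least 1, and Klf6 holds 1 in 3111 bases, where 18.8% do. The first Ezh2 match lacks the final A of TACTGTA, which pairs with the first base of the miR-101b-3p seed. The other 3 windows match both seeds. A match says only that these letters stand in the UTR.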

How the data were processed

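Per the labels' protocols, each liver's total RNA went into a TruSeq small RNA library. As deposited, every library has its own file of whole-number counts, 1 row for each mature miRNA. Bowtie, HTSeq and the build mm10 are named in the submitters' processing notes. The sources used here do not give versions, trimming, allowed mismatches, the miRNA annotation or the handling of reads with several matches. Each file has 5 summary rows, which were left out; they held reads outside annotated miRNAs (22.8% to 26.4%), unaligned reads (7.11% to 8.49%) and ambiguous reads (at most 0.00143%).

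The quasi-likelihood test of edgeR 4.0.16 (R 4.3.3), with TMM factors and the filterByExpr filter, was run on the 644 of 1907 miRNAs kept, with Benjamini-Hochberg adjustment over all 644. The SE is the log2 fold change divided by the square root of F. Strand ratios were tested with limma 3.58.1. Single ratios were tested by exact permutation over libraries. Shares have 95% Wilson intervals. They reflect counting error alone, since no molecular identifiers are described. The procedures were tested on simulated data.

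Replicates differed by more than read sampling (chi-square per degree of freedom 237 and 324), so none was taken for a copy. The labels do not say that equal replicate numbers mark a shared animal or day. Alternatives were other scalings, filters, DESeq2 1.42.0, limma-voom, a replicate block and leaving out each library. The members, lists and tests were chosen with earlier results of these data known. Named miRNAs outside the members are, per list, those past the threshold or the 3 with the smallest p and the most abundant, the 3 nearest in pattern to each 3p strand, and its neighbours in level; marker lists are mostly given by counts and sums. Sequences are from RefSeq (GRCm38.p6), and positions, hosts and UTRs from GENCODE M21, of the same build.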

Additional observations from a re-analysis of the deposited data

How the results depend on the processing

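The 4 fold changes were refitted under 14 other choices, of which 1, a replicate block with crossed numbers, was added after the data were seen. Both 3p strands kept a negative sign in all 14, from -0.47 to -0.17 for miR-101a-3p and from -0.50 to -0.19 for miR-101b-3p. miR-101b-3p also passed with no filter on low counts (-0.33, adjusted p = 0.0368). Over the fits that left out 1 library, miR-101a-3p lay between -0.43 and -0.18, miR-101b-3p between -0.48 and -0.19, miR-101a-5p between -0.29 and -0.15, and miR-101b-5p between -0.39 and 0.034, the last reversed without control 2. In those fits the lone library of a group is assumed to vary like the others. The log2 ratio of miR-101a-3p to miR-101b-3p, 0.028 between the groups, lay between -0.055 and 0.11 and was reversed without TAA 2. The strand ratios passed under none of 8 choices, at 0.035 to 0.14 for miR-101a and 0.063 to 0.24 for miR-101b. With a replicate block the changes of miR-101a-3p and miR-101b-3p were -0.29 and -0.32, and 0 members passed. The deviations of same-numbered libraries had a weak negative correlation (-0.18 over 403 miRNAs), from which the crossed numbering was set up; with it, 1 member passed, miR-101b-3p at -0.32 (adjusted p = 0.0433); the block calls 92 higher and 18 lower of all tested, the crossed block 95 and 20. miR-26a-5p turned to 0.051 with library size alone, and lay between -0.16 and 0.019 with 1 library left out, reversed without TAA 2. The cause of these shifts was not tested. Of all miRNAs tested, 90 were called higher and 17 lower, against 107 and 12 with library size alone, 83 and 32 with upper-quartile factors, 105 and 32 with no filter, and 42 and 6 with at least 10 counts in every library. Without control 1 they were 93 and 29, without control 2 98 and 33, without TAA 1 51 and 3, and without TAA 2 47 and 2. miR-101b-5p, at 93 to 125 counts, is the member whose depth limits what can be seen.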
